A study of Homo sapiens with 12 samples.

Results

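The genes described here encode the machinery that makes ribosomes in the nucleolus: subunits and cofactors of RNA polymerase I, and the proteins that modify, cut and assemble ribosomal RNA. They were taken by gene symbol from a list of 52 nucleolar ribosome assembly factors and RNA polymerase I genes. All 52 were found among the 27514 genes of the deposited expression table, each in a single row. All 52 had a mean of at least 5 CPM (a gene's reads scaled to the size of its library) over the 12 samples, so none was lost to the filter on low values, a mean of at least 1 CPM, which left 12680 genes for testing.

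RNA was sequenced from IMR32, an established human neuroblastoma cell line in which the transcription factor gene MYCN is amplified. The cells were electroporated with small interfering RNAs (siRNAs) by Nucleofector and kept in growth medium for 72 h. The 4 groups had 3 samples each. They were named for their siRNA: siCtrl for the control, siMYCN and siHAND2 for the single targets, and siMYCN+siHAND2, here the double knockdown, for both targets at once. HAND2 encodes a transcription factor of the sympathetic nervous system. Electroporation was common to all groups, and the labels give 1 siRNA per target, 1 cell line and 1 time, with no amount of siRNA. They do not say that the samples of a group came from separate cultures, so the p-values below measure only the spread between these samples, which may be technical. In bulk RNA, fewer cells and less RNA per cell cannot be told apart, and CPM gives a share of a library, not an amount per cell.

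Ribosome production starts when RNA polymerase I, with UBTF and RRN3, transcribes ribosomal DNA into a long precursor RNA. Small nucleolar ribonucleoproteins (snoRNPs) guide its chemical modification, and large assemblies of processing factors cut it and build the small and large ribosomal subunits around the pieces. Ribosome biogenesis genes are a classic target group of the MYC family, whose proteins bind the E-box CACGTG as dimers with MAX, and amplified MYCN is a hallmark of high-risk neuroblastoma.

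Promoter sequences are shown for the members with the most E-boxes near their start. They come from RefSeq (GRCh38.p14) and run from 250 bases before to 50 bases after an annotated transcription start. Such a window was matched for 43 of the 52 members, and the E-box CACGTG, which reads the same on both strands, was found in 19 of these 43 genes (44.2%). It was found in 8.77% of all 27305 genes with a window and in 13.0% of the 9663 tested genes with one. Among other genes of these pathways with a window, it was found in 36.1% of 36 small subunit factors, 26.7% of 45 large subunit factors, 11.1% of 9 RNA polymerase I genes and 42.9% of 7 subunits specific to RNA polymerase III, and in 0 of 4 specific to RNA polymerase II. A match describes these letters only and is no evidence of binding in these cells. IMP4, a protein of the U3 snoRNP, has its window at chr2:130342647-130342946 on the plus strand. NOP10, a core protein of H/ACA snoRNPs, has its window at chr15:34343087-34343386 on the minus strand. Each of these 2 windows held 2 E-boxes, and the other members with a match held 1 in a window. UTP20, a small subunit processing factor, has its window at chr12:101279855-101280154 on the plus strand. RRP9, a protein specific to the U3 snoRNP, has its window at chr3:51941855-51942154 on the minus strand. The last pair had the largest falls in the double knockdown among the members with a single E-box. Capitals mark each CACGTG, and all runs are written 5′ to 3′ in the direction of transcription:
IMP4: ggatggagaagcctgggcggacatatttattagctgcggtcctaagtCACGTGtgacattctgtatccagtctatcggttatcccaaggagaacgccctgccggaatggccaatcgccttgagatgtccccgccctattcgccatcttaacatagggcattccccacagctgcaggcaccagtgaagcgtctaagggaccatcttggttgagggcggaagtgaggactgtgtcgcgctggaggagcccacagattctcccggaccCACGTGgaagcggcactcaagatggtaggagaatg
NOP10: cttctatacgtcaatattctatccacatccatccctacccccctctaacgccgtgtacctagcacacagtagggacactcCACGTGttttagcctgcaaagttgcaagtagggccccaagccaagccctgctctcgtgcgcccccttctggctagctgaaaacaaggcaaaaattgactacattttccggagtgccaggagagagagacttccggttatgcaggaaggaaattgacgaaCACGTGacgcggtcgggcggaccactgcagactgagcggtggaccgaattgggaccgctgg
UTP20: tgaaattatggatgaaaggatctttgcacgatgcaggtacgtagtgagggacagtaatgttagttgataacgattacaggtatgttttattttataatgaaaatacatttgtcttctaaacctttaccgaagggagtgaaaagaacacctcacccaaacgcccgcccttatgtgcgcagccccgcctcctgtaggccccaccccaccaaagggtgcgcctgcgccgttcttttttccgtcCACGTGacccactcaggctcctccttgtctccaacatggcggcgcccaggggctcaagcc
RRP9: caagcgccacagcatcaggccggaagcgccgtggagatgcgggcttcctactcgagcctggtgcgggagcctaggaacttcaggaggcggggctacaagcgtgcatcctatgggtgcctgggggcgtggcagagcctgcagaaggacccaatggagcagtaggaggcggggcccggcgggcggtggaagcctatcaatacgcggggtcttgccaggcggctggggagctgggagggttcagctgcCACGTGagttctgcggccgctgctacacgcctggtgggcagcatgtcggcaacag
With the first transcribed base as position 1, the E-boxes begin at -203 and 16 in IMP4, at -170 and -11 in NOP10, at -10 in UTP20 and at -5 in RRP9. In the double knockdown, the level of UTP20 was 24.3% and that of RRP9 27.1% of siCtrl, both chosen for their fall, and it was 44.6% for IMP4 and 68.5% for NOP10. On values rescaled as described below, the levels were 31.1% for UTP20, 34.3% for RRP9, 56.5% for IMP4 and 88.0% for NOP10.

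Depth, estimated by taking the most common nonzero CPM value of a sample as a single read, was 31.6 to 64.2 M reads a sample. Listed genes held 65.1% ± 0.736 of the reads of siCtrl (SD, n = 3), 62.4% ± 0.979 of those of siMYCN, 59.4% ± 2.39 of those of siHAND2 and 51.4% ± 7.04 of those of the double knockdown, whose samples stood apart from each other at 58.4, 51.4 and 44.3%. Against siCtrl, all tested genes had a median log2 change of 0.006 for siMYCN, -0.14 for siHAND2 and -0.28 for the double knockdown. Counts of members are therefore also given on rescaled values, for which a sample's CPM were divided by the median of its ratios to the geometric mean of the samples. This brought those medians to 0.01, 0.01 and 0.05. The sympathoadrenal marker GATA3 stood at 23.5 to 50.0 CPM in all samples, while TH did not exceed 2.06 CPM. Markers of other cells were low, with CD3E and KRT5 at 0 in every sample. The 4 blood markers summed to at most 0.118 CPM and the 3 epithelial markers to at most 0.415 CPM in any sample. The 3 endothelial markers summed to 0.551 to 0.776 CPM in siCtrl, and were higher without overlap at 2.05 to 2.82 in siMYCN, 0.886 to 1.45 in siHAND2 and 1.195 to 1.917 in the double knockdown. The 5 fibroblast markers summed to 7.20 to 9.14 CPM in siCtrl, 6.31 to 7.36 in siMYCN, 1.29 to 1.99 in siHAND2 and 0.976 to 1.28 in the double knockdown, most of it COL1A1 by group mean. The part of these markers in the results was not tested.

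The targeted genes were examined first. MYCN was at 964, 1049 and 1015 CPM in siCtrl, 671, 666 and 708 in siMYCN, 899, 844 and 802 in siHAND2, and 555, 458 and 433 in the double knockdown. The siMYCN samples thus kept 67.5% of the siCtrl mean and the double knockdown 47.7%, and both falls passed the test (limma, adjusted p = 0.000532 and 1.26e-08). These are deposited values. On rescaled ones MYCN was at 68.0% of siCtrl in siMYCN, 61.0% in the double knockdown and 93.9% in siHAND2. HAND2 was at 224, 241 and 254 CPM in siCtrl, 324, 319 and 334 in siMYCN, 54.3, 64.9 and 67.7 in siHAND2, and 86.3, 67.1 and 67.2 in the double knockdown. HAND2 was higher in siMYCN than in siCtrl by 0.44 on the log2 scale (adjusted p = 0.00618). The MYCN level of siHAND2 lay below siCtrl in all 3 samples, at 84.1% of its mean, and that difference did not pass the test (adjusted p = 0.0860).

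The 52 genes together took a smaller part of the RNA in every knockdown. Their CPM summed to 6316 ± 40.8 (SD, n = 3) for siCtrl, 3744 ± 55.5 for siMYCN, 4767 ± 150 for siHAND2 and 2536 ± 410 for the double knockdown, the last 3 being 59.3%, 75.5% and 40.1% of siCtrl. As a share of the reads in listed genes, the sum made up 0.970% for siCtrl, 0.600% for siMYCN, 0.803% for siHAND2 and 0.493% for the double knockdown, the last 3 being 61.9%, 82.7% and 50.8% of siCtrl. No group overlapped another in the summed CPM, and the double knockdown samples were the most uneven, at 2974, 2472 and 2161 CPM. Without NPM1, the gene with the most reads, the sums were 4563, 2883, 3474 and 1912 CPM in the same order of groups.

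**Figure D1:**
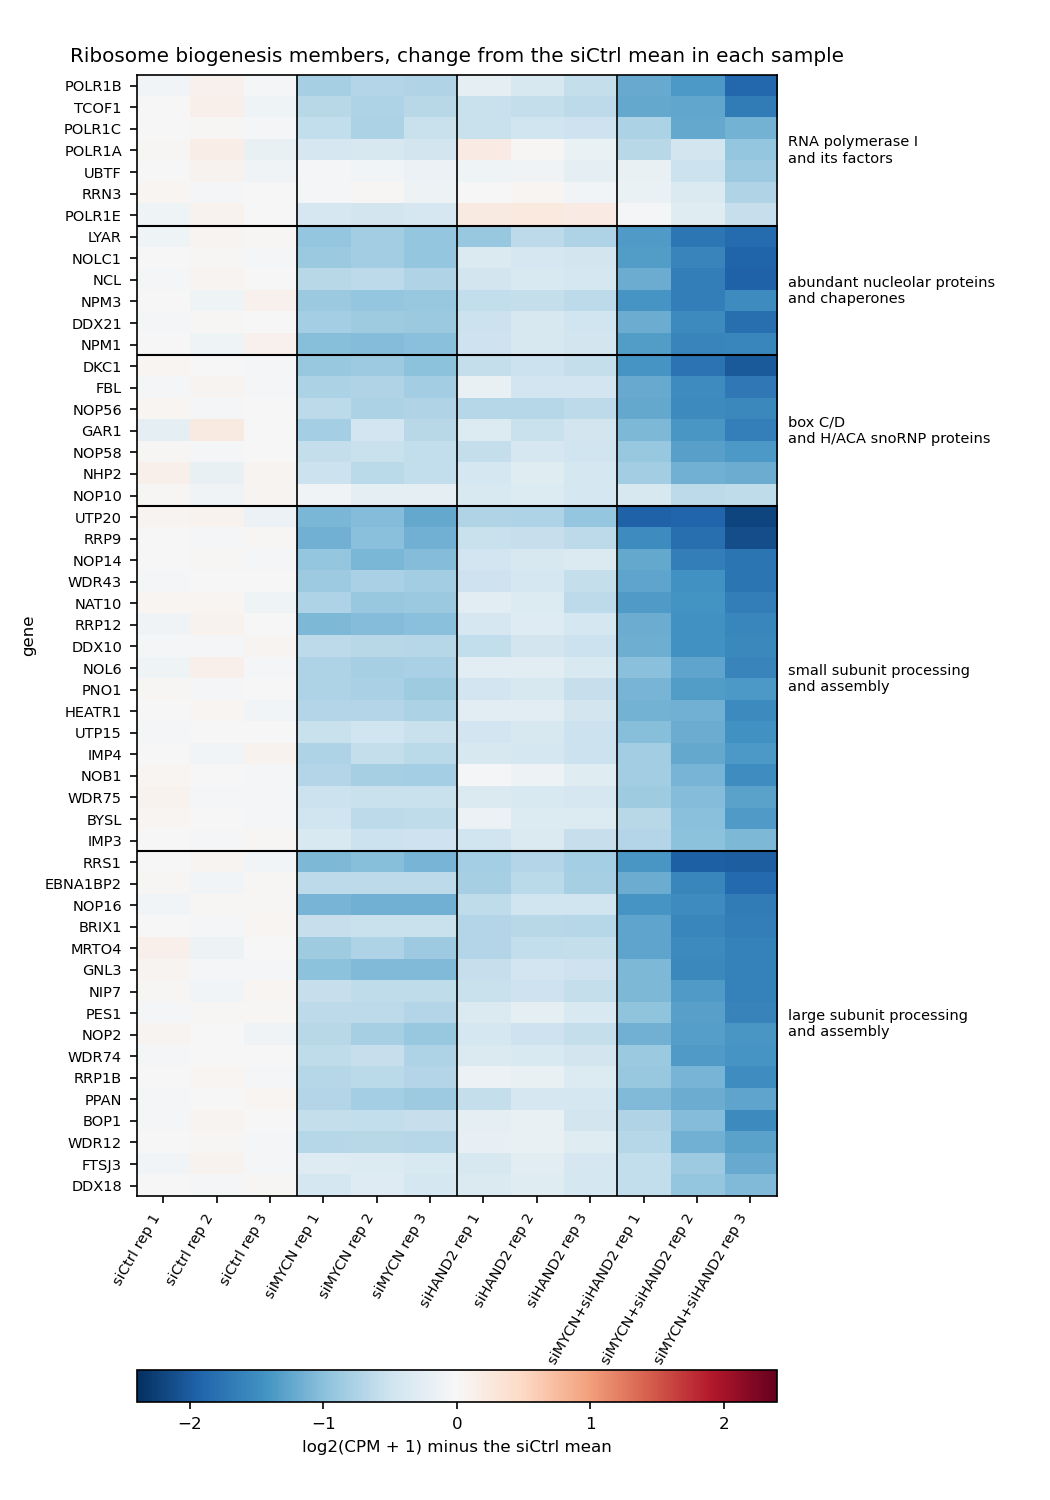
Change of each of the 52 genes (rows, grouped by role) from its siCtrl mean in each of the 12 samples (columns), as a difference of log2(CPM + 1) shown by colour. Nearly all rows are blue in the 3 knockdown groups and darkest in the double knockdown, where replicate 3 is the darkest column; POLR1E is the row that is pale red in all 3 siHAND2 samples.

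Each gene was tested with limma on log2(CPM + 1), with Benjamini-Hochberg adjustment over all 12680 genes, and a gene is termed lower or higher here where its adjusted p was under 0.05. In siMYCN, 49 of the 52 members were lower and none was higher than in siCtrl. Of all 12680 tested genes, 16.3% were lower and 2202 genes were higher. At an unadjusted p under 0.05 the counts of members were 49 and 0, and those of all genes 2610 and 2770. In siHAND2, 42 members were lower and 0 higher, against 30.4% and 12.3% of all genes. The unadjusted counts at p under 0.05 were 43 and 0 for members and 4545 and 1860 for all genes. In the double knockdown all 52 were lower, against 50.1% of all genes. None was higher by limma, where 2200 of all genes were, or at an unadjusted p under 0.05, where 2307 were. The members had a median log2 change of -0.69 for siMYCN, -0.43 for siHAND2 and -1.32 for the double knockdown, and 41 members were lower in all 3. The share of all genes lower in all 3 was not counted. The comparisons share the siCtrl samples.

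After rescaling, 49 members were lower in siMYCN (22.5% of all genes), 41 in siHAND2 (24.9%) and 50 in the double knockdown (33.0%). A further 2 were then higher in siHAND2, where 25.9% of all genes were. The rescaled medians were -0.67, -0.28 and -0.98, so the fall in siMYCN hardly depended on the scale, while those in siHAND2 and the double knockdown were smaller on it. By samples, 50 members had all 3 siMYCN samples below all 3 siCtrl samples, as did 29.6% of all genes. The same held for 48 members in siHAND2, against 45.0% of all genes, and for 51 in the double knockdown, against 48.3%. The siHAND2 count of non-overlapping members is to be read against that large share of all genes.

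RNA polymerase I and its factors had the smallest median change of the 5 roles in each comparison with siCtrl. Of these 7 members, 5 were lower in siMYCN, 3 in siHAND2 and 7 in the double knockdown, with median log2 changes of -0.42, -0.14 and -0.68. After rescaling the counts were 5, 3 and 5, with medians of -0.41, 0.02 and -0.325, and 2 were higher in siHAND2. Counts for this role and the 4 others are to be read against all genes. Of those, 16.3%, 30.4% and 50.1% were lower in the 3 comparisons, or 22.5%, 24.9% and 33.0% after rescaling, where 25.9% were higher in siHAND2. POLR1B, the second-largest subunit (chr2:113299492-113334730, hg19), was at 71.1, 79.2 and 72.4 CPM in siCtrl, 42.5, 45.0 and 44.3 in siMYCN, 62.9, 56.4 and 49.4 in siHAND2, and 31.3, 28.0 and 19.4 in the double knockdown. Its groups did not overlap, and its falls passed the test in siMYCN (-0.74, SE 0.136, adjusted p = 0.000140), siHAND2 (-0.40, adjusted p = 0.0197) and the double knockdown (-1.49, adjusted p = 4.71e-10). TCOF1 (treacle, a partner of the polymerase at ribosomal DNA) went the same way, to 61.5%, 66.3% and 38.0% of siCtrl, and POLR1C, a subunit shared with RNA polymerase III, to 63.1%, 69.1% and 46.5%. On rescaled values these were 62.0%, 74.1% and 48.4% for TCOF1 and 63.6%, 77.2% and 59.3% for POLR1C.

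RRN3 and UBTF, which start transcription, had no change that passed the test in the single knockdowns on deposited values. RRN3, which brings the polymerase to the promoter, was at 86.4, 82.1 and 83.2 CPM in siCtrl, 82.1, 85.2 and 77.3 in siMYCN, 84.2, 86.6 and 79.8 in siHAND2, and 75.4, 65.4 and 50.5 in the double knockdown. The first 3 groups overlapped, with log2 changes of -0.04 (SE 0.123, adjusted p = 0.828) and -0.01 (adjusted p = 0.969). RRN3 was lower in the double knockdown alone among the comparisons with siCtrl, at -0.41 (adjusted p = 0.00518), and this ended on rescaling (-0.05, adjusted p = 0.391), while its rescaled siHAND2 value was higher by 0.15 (adjusted p = 0.0303). UBTF, which binds the promoter and body of ribosomal DNA, was at 193, 208 and 185 CPM in siCtrl, 192, 186 and 176 in siMYCN, 182, 183 and 165 in siHAND2, and 173, 137 and 106 in the double knockdown. Its siMYCN samples overlapped siCtrl and its siHAND2 samples lay just below, and its log2 changes of -0.08 (SE 0.135, adjusted p = 0.682) and -0.14 (adjusted p = 0.414) in the single knockdowns did not pass the test. In the double knockdown it fell by 0.52 (adjusted p = 0.00158), or by 0.16 on rescaled values (adjusted p = 0.0460).

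A pair of polymerase subunits was lower in siMYCN but not in siHAND2. POLR1E (chr9:37485932-37503695, hg19), the partner of CD3EAP in a subcomplex of the enzyme, was at 42.7, 48.2 and 46.2 CPM in siCtrl, 34.3, 33.3 and 34.2 in siMYCN, 52.9, 54.0 and 52.6 in siHAND2, and 44.2, 37.1 and 30.7 in the double knockdown. Its siMYCN samples lay below and its siHAND2 samples above every siCtrl sample, and its double knockdown samples overlapped siCtrl. The fall in siMYCN passed the test (-0.42, SE 0.118, adjusted p = 0.00767), and the siHAND2 difference passed it on rescaled values (0.37, adjusted p = 8.16e-05) but not on deposited ones (0.21, adjusted p = 0.146). The direct comparison of siMYCN with siHAND2 gave -0.63 (adjusted p = 0.000156). In the double knockdown POLR1E was lower by 0.30 (adjusted p = 0.0275), which turned to 0.05 on rescaling (adjusted p = 0.426). POLR1A, the largest subunit, was at 126, 139 and 109 CPM in siCtrl, 93.9, 94.8 and 91.7 in siMYCN, 142, 127 and 111 in siHAND2, and 78.0, 90.7 and 64.3 in the double knockdown. It was lower in siMYCN (-0.40, adjusted p = 0.0178), and its siHAND2 samples overlapped siCtrl (0.02, adjusted p = 0.917); the single knockdowns differed by -0.42 (adjusted p = 0.0129).

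**Figure D2:**
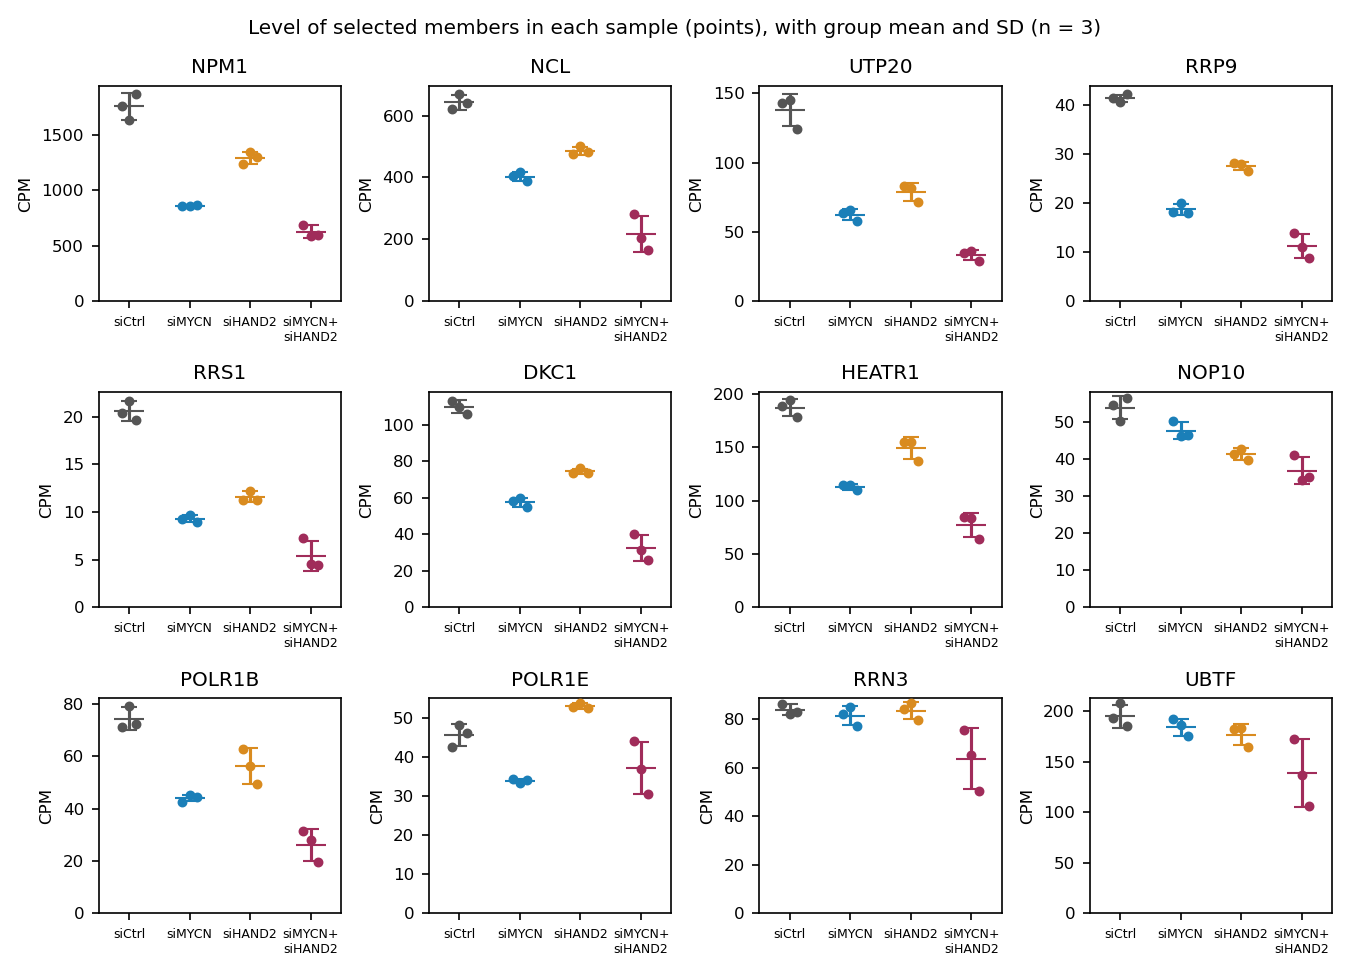
CPM of 12 members in each sample (points), with the mean and SD of each group of 3 (bars); axes are linear and begin at 0. NPM1, UTP20, RRP9, RRS1, DKC1 and HEATR1 step down from siCtrl through siHAND2 and siMYCN to the double knockdown, whereas RRN3 overlaps between siCtrl and both single knockdowns, UBTF overlaps between siCtrl and siMYCN with siHAND2 just below, and POLR1E is highest in siHAND2.

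The abundant nucleolar proteins and chaperones were lower in all 3 comparisons for 6 of 6 members, with median log2 changes of -0.89, -0.45 and -1.56. After rescaling the counts were the same, with medians of -0.88, -0.29 and -1.215. NPM1, a nucleolar chaperone that shuttles ribosomal proteins (chr5:170814708-170837889, hg19), was at 1757, 1632 and 1869 CPM in siCtrl, 857, 855 and 871 in siMYCN, 1236, 1345 and 1297 in siHAND2, and 691, 586 and 594 in the double knockdown. No group overlapped another, and the falls of NPM1 passed the test in siMYCN (-1.02, SE 0.114, adjusted p = 1.66e-07), siHAND2 (-0.44, adjusted p = 0.00312) and the double knockdown (-1.49, adjusted p = 1.93e-11). NPM1 has many processed pseudogenes that could take or give reads, and how such reads were counted is not given. NCL (nucleolin, which binds precursor ribosomal RNA) was at 620, 670 and 640 CPM in siCtrl, 405, 418 and 388 in siMYCN, 475, 502 and 481 in siHAND2, and 281, 204 and 166 in the double knockdown, again with no overlap; its changes of -0.67, -0.40 and -1.60 all passed. LYAR, a nucleolar zinc finger protein, was at 18.7, 21.2 and 20.5 CPM in siCtrl, 10.1, 10.8 and 10.1 in siMYCN, 10.3, 12.7 and 11.6 in siHAND2, and 7.23, 5.31 and 4.85 in the double knockdown. LYAR was among the 4 largest falls in siHAND2 (-0.76, SE 0.122, adjusted p = 1.88e-05), where its samples overlapped those of siMYCN.

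Among the 7 snoRNP proteins, 6 were lower in siMYCN and all 7 in siHAND2 and in the double knockdown, with medians of -0.65, -0.43 and -1.37. After rescaling the counts were 6, 6 and 7, with medians of -0.63, -0.29 and -1.08. NOP56, a core protein of the methylation-guiding box C/D snoRNPs, was at 157, 148 and 152 CPM in siCtrl, 98.3, 89.7 and 91.6 in siMYCN, 94.8, 95.0 and 97.9 in siHAND2, and 64.5, 52.4 and 51.2 in the double knockdown. NOP56 was thus near the same level in both single knockdowns (-0.70 and -0.66, SE 0.112 each; difference -0.04, adjusted p = 0.797), although rescaled values put siMYCN lower by 0.19 (adjusted p = 0.0236). DKC1 (dyskerin, the pseudouridine synthase of H/ACA snoRNPs; chrX:153991017-154005965, hg19) was at 113, 110 and 106 CPM in siCtrl, 58.1, 59.8 and 55.0 in siMYCN, 73.7, 76.2 and 73.8 in siHAND2, and 40.4, 31.3 and 26.2 in the double knockdown. It was the fourth-largest fall of the double knockdown (-1.74, SE 0.124, adjusted p = 5.84e-12), with no overlap of any groups. NOP10 had the smallest change of this set in siMYCN and in the double knockdown: 54.5, 50.4 and 56.5 CPM in siCtrl, 50.3, 46.2 and 46.4 in siMYCN, 41.5, 42.8 and 39.8 in siHAND2, and 41.1, 34.4 and 35.1 in the double knockdown. Its change in siMYCN did not pass the test (-0.17, adjusted p = 0.237) although no siMYCN sample reached the lowest siCtrl sample, and those in siHAND2 (-0.37, adjusted p = 0.00774) and the double knockdown (-0.54, adjusted p = 0.000115) did.

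Small subunit processing and assembly factors were lower for 16 of 16 members in siMYCN, 13 in siHAND2 and 16 in the double knockdown, with medians of -0.77, -0.42 and -1.28. Rescaled counts were the same, with medians of -0.76, -0.27 and -0.93. UTP20 (chr12:101673905-101780398, hg19), whose promoter is shown above, was at 143, 145 and 124 CPM in siCtrl, 63.6, 65.9 and 58.1 in siMYCN, 83.2, 81.7 and 71.8 in siHAND2, and 35.0, 36.0 and 29.0 in the double knockdown. No groups overlapped, and its fall was the largest of all members in siHAND2 (-0.79, SE 0.117, adjusted p = 5.25e-06) and in the double knockdown (-2.01, adjusted p = 1.42e-13) and the second-largest in siMYCN (-1.12, adjusted p = 5.95e-08). RRP9 (chr3:51967442-51975958, hg19) was at 41.5, 40.8 and 42.3 CPM in siCtrl, 18.2, 20.1 and 18.0 in siMYCN, 28.2, 28.0 and 26.6 in siHAND2, and 13.9, 11.1 and 8.78 in the double knockdown. It fell by 1.11 in siMYCN (SE 0.123, adjusted p = 1.64e-07), by 0.57 in siHAND2 (adjusted p = 0.000544) and by 1.82 in the double knockdown (adjusted p = 2.30e-12). HEATR1, a scaffold of the small subunit processome and the member of this set with the most CPM (not divided by length), was at 189, 194 and 178 CPM in siCtrl, 115, 115 and 110 in siMYCN, 155, 155 and 137 in siHAND2, and 84.2, 83.2 and 63.9 in the double knockdown. The 3 members of this set that did not pass the test in siHAND2 were NOB1, the nuclease that makes the 3′ end of 18S ribosomal RNA, at 90.1% of siCtrl, BYSL at 83.0% and NOL6 at 81.0%.

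Large subunit processing and assembly factors were likewise lower for 16 of 16 members in siMYCN, 13 in siHAND2 and 16 in the double knockdown, with medians of -0.66, -0.48 and -1.29. Rescaled counts were the same, with medians of -0.65, -0.32 and -0.94. NOP16 was at 17.7, 19.0 and 19.1 CPM in siCtrl, 8.03, 7.77 and 7.83 in siMYCN, 11.8, 13.1 and 13.1 in siHAND2, and 6.39, 5.87 and 5.12 in the double knockdown. It had the largest fall of all members in siMYCN, to 42.4% of siCtrl (-1.14, SE 0.107, adjusted p = 1.17e-08), with no overlap of groups. RRS1, needed for 5S ribosomal RNA to join the large subunit precursor, was at 20.4, 21.7 and 19.7 CPM in siCtrl, 9.23, 9.66 and 8.94 in siMYCN, 11.3, 12.2 and 11.3 in siHAND2, and 7.25, 4.56 and 4.46 in the double knockdown. It was among the 4 largest falls in every comparison with siCtrl (-1.07, -0.78 and -1.78, SE 0.128 each). EBNA1BP2 was at 27.0, 25.5 and 27.2 CPM in siCtrl, 16.8 in each siMYCN sample, 14.8, 16.5 and 14.9 in siHAND2, and 11.0, 8.34 and 6.58 in the double knockdown. EBNA1BP2 was the fourth of the 4 largest falls in siHAND2 (-0.75, adjusted p = 3.30e-05). The difference between its single knockdowns did not pass the test on deposited values (0.12 for siMYCN against siHAND2, SE 0.126, adjusted p = 0.479) or on rescaled ones, where the sign turned (-0.02, adjusted p = 0.847).

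DDX18, an RNA helicase and the large subunit factor with the most CPM, had one of the smaller falls: 141, 137 and 143 CPM in siCtrl, 105, 113 and 104 in siMYCN, 110, 115 and 104 in siHAND2, and 92.5, 73.0 and 67.2 in the double knockdown. Its single knockdowns overlapped each other but not siCtrl (-0.38, adjusted p = 0.0144, and -0.35, adjusted p = 0.0175). In the double knockdown DDX18 was at 55.3% of siCtrl (-0.86, adjusted p = 5.32e-07), or at 70.4% on rescaled values. BOP1, WDR12 and RRP1B were the large subunit factors that did not pass the test in siHAND2, at 82.5%, 85.3% and 86.1% of siCtrl. BOP1 and WDR12 form a complex with PES1, which was lower at 80.3% of siCtrl.

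**Figure D3:**
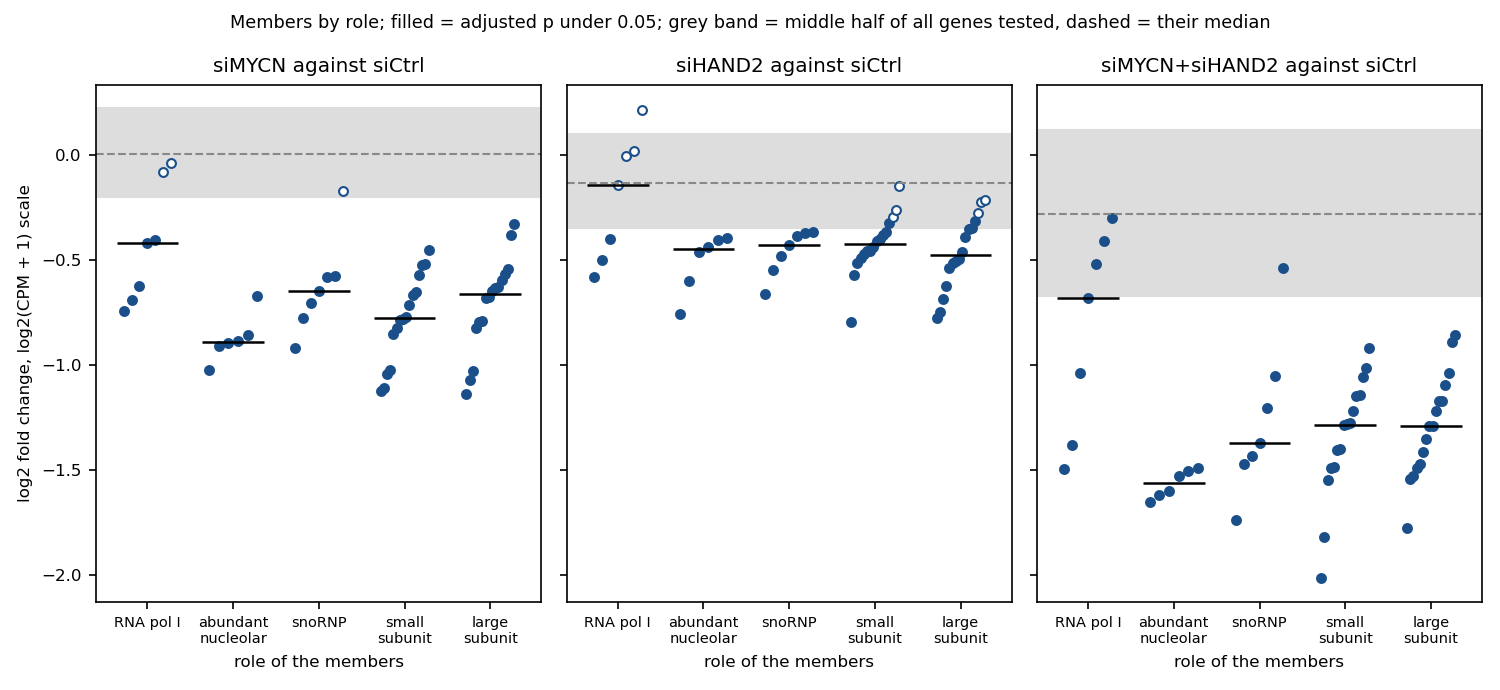
Log2 fold change of each member against siCtrl in the 3 knockdowns, by role, on the log2(CPM + 1) scale; filled points passed the test, black bars are the medians of a role, and the grey band holds the middle of all tested genes (first to last quartile) with their median dashed. Members of the 4 nucleolar roles lie below the band in siMYCN except for NOP10, whereas RNA polymerase I genes reach into it in all 3 panels.

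The knockdowns were then compared with each other. In siMYCN against siHAND2, 25 members were lower and 0 higher (unadjusted p under 0.05: 29 and 0), with a median of -0.30. Of all genes, 8.98% were lower and 3304 genes were higher (unadjusted p under 0.05: 1489 and 4131 genes), with a median of 0.13. After rescaling 46 members were lower, against 22.2% of all genes, with a median of -0.44. The deposited count of members fell to 16, 14, 16 and 15 without siMYCN replicate 2, siMYCN replicate 3, siHAND2 replicate 1 or siHAND2 replicate 2. The differences with the largest size were in RRP12, POLR1E and NOP14. RRP12, a small subunit assembly and export factor, was at 44.8, 50.5 and 46.8 CPM in siCtrl, 21.8, 22.4 and 23.1 in siMYCN, 35.6, 37.8 and 35.0 in siHAND2, and 20.3, 16.6 and 15.3 in the double knockdown. Its siMYCN level was lower than its siHAND2 level by 0.66 on the log2 scale (SE 0.112, adjusted p = 4.80e-05). NOP14, another small subunit factor, was at 61.6, 62.0 and 59.9 CPM in siCtrl, 31.7, 27.9 and 29.4 in siMYCN, 44.4, 46.7 and 47.6 in siHAND2, and 25.5, 18.7 and 17.5 in the double knockdown (siMYCN against siHAND2 -0.62, adjusted p = 0.000240).

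In 46 members the siMYCN mean lay below the siHAND2 mean (51 on rescaled values), and 44 followed the order siCtrl, siHAND2, siMYCN, double knockdown from high to low (46 rescaled). BRIX1, a large subunit factor, was among the 6 with the opposite order of the single knockdowns on deposited values, of which NOP10 alone kept it after rescaling. BRIX1 was at 50.5, 50.3 and 52.6 CPM in siCtrl, 34.3, 35.2 and 34.8 in siMYCN, 31.0, 31.8 and 31.3 in siHAND2, and 20.6, 16.7 and 15.6 in the double knockdown. The difference between its single knockdowns did not pass the test (0.14, adjusted p = 0.326) although their samples did not overlap, and it was -0.003 after rescaling (adjusted p = 0.973). The double knockdown had the lowest mean in 51 members, the exception being POLR1E (49 members rescaled). It was under 50% of siCtrl in 44 members, against 8 in siMYCN and 0 in siHAND2. On rescaled values these counts were 26, 8 and 0. Of all 12680 tested genes, 4168 had a negative log2 change in siMYCN against siHAND2 (6487 rescaled). The double knockdown was negative against siMYCN in 9747 (5825 rescaled) and against siHAND2 in 8655 (5903 rescaled). Shares of all genes were not counted for the full order of groups or for levels under 50%.

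The double knockdown was lower than siMYCN alone in 50 members (50.0% of all genes, and 51 members at an unadjusted p under 0.05). It was lower than siHAND2 alone in 51 (31.5% of all genes, and 51 members unadjusted), and no member was higher in either. Of all genes, 1131 were higher against siMYCN and 1109 against siHAND2. At an unadjusted p under 0.05, 6794 of all genes were lower against siMYCN and 4731 against siHAND2. POLR1A and POLR1E did not pass against siMYCN, and NOP10 did not pass against siHAND2. The count against siMYCN fell to 32 on rescaled values (26.6% of all genes), where 1 member, POLR1E, was higher (0.46, adjusted p = 9.19e-06), as were 30.0% of all genes. NPM1 was among those that no longer passed (-0.47, adjusted p = 0.00115 as deposited; -0.12, adjusted p = 0.243 rescaled), whereas UTP20 (-0.89 and -0.55) and NCL (-0.93 and -0.58) passed on both scales.

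The interaction asks whether the change in the double knockdown differs from the sum of the single changes on the log2 scale. It was negative in 0 and positive in 0 of the 52 members by limma, where it was negative in 3.65% of all genes and positive in 45 genes. At an unadjusted p under 0.05 it was negative in 2 members, NCL and RRN3, and positive in 0. Of all 12680 tested genes, it was then negative in 2431 and positive in 287. The members' median was -0.17 against -0.18 for all genes, and 0.01 against -0.01 after rescaling. NCL had the most negative value, -0.52 (SE 0.195, adjusted p = 0.131), with single changes of -0.67 and -0.40 and a double knockdown change of -1.60. Without replicate 1 of the double knockdown, the sample with the highest share of reads in listed genes in that group, 19 members had a negative interaction, where 33.6% of all genes did, and 1 of them (NCL) when the values were also rescaled, where 7.16% of all genes did.

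Other genes of the same pathways, listed by role and not among the 52, are given by their counts. Of all genes, 16.3%, 30.4% and 50.1% were lower in siMYCN, siHAND2 and the double knockdown, or 22.5%, 24.9% and 33.0% after rescaling. On rescaled values, 3286 of all genes were higher in siHAND2 and 4776 in the double knockdown. Of 45 further small subunit factors, 29 were lower in siMYCN, 27 in siHAND2 and 45 in the double knockdown, with medians of -0.40, -0.36 and -0.91, and DHX37, an RNA helicase of the processome, had the largest fall in siMYCN (-0.97) and in the double knockdown (-1.62). Of 50 further large subunit factors, 35, 29 and 48 were lower, with medians of -0.41, -0.33 and -0.93. URB2 (-1.72) and NOC3L (-1.63) had the largest falls of that list in the double knockdown. None of these genes was higher in any of the 3 comparisons on deposited values. After rescaling, the small subunit list had 40, 23 and 43 lower genes and the large subunit list 44, 26 and 42, with 3 of the latter higher in siHAND2 and 1 in the double knockdown. Their medians lay between those of the 52 members and those of all genes in each comparison.

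The RNA polymerases were set side by side because several subunits are particular to one enzyme. Of all genes, 16.3%, 30.4% and 50.1% were lower in siMYCN, siHAND2 and the double knockdown. Of 9 further RNA polymerase I subunits and factors, 7 were lower in siMYCN, 5 in siHAND2 and 8 in the double knockdown. CD3EAP (now POLR1G), the partner of POLR1E, had the largest fall of that list, from 9.30 ± 0.175 CPM (SD, n = 3) in siCtrl to 3.75 ± 0.300 in siMYCN, 5.80 ± 0.920 in siHAND2 and 2.50 ± 0.491 in the double knockdown (-1.12, -0.61 and -1.57). It was therefore lower in siHAND2 (adjusted p = 0.000304), where POLR1E was not. TAF1C, of the promoter selectivity factor SL1, did not pass in any of the 3 (-0.15, 0.10 and 0.09), and was higher in the double knockdown on rescaled values (0.42, adjusted p = 0.00407).

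Of 7 subunits specific to RNA polymerase II, 1 was lower in siMYCN (POLR2D, -0.39), 5 in siHAND2 and 6 in the double knockdown, with medians of -0.15, -0.36 and -0.55. Of 11 specific to RNA polymerase III, the maker of transfer RNA and 5S ribosomal RNA, 5 were lower and 1 higher in siMYCN. In siHAND2 4 of them were lower and in the double knockdown 9, and the medians were -0.24, -0.27 and -0.69. Of all genes, 16.3%, 30.4% and 50.1% were lower in these comparisons, and 2202 genes were higher in siMYCN. After rescaling, the lower counts were 2, 4 and 4 for RNA polymerase II and 7, 3 and 8 for RNA polymerase III. The rescaled higher counts were 1, 2 and 1 for RNA polymerase III, whose siHAND2 median was then -0.11. Of all genes, 22.5%, 24.9% and 33.0% were lower after rescaling, and 25.9% were higher in siHAND2. POLR3G and POLR3GL encode alternative forms of the same subunit. POLR3G went from 4.56 ± 0.276 CPM in siCtrl to 1.30 ± 0.191 in siMYCN, 2.95 ± 0.392 in siHAND2 and 1.17 ± 0.109 in the double knockdown (-1.28, adjusted p = 1.18e-08 in siMYCN). POLR3GL went from 7.08 ± 0.184 to 10.1 ± 0.813 CPM in siMYCN, a rise of 0.46 (adjusted p = 0.00758), and was at 7.49 ± 0.780 in siHAND2 and 8.21 ± 1.99 in the double knockdown. POLR3GL also was higher in the double knockdown on rescaled values (0.49, adjusted p = 0.000284). The median of the 7 RNA polymerase I members in siMYCN (-0.42) was lower than those of the RNA polymerase II (-0.15) and III (-0.24) lists. In siHAND2 the median of these 7 members was the least low of them (-0.14, against -0.36 and -0.27). In the double knockdown it was -0.68, against -0.55 and -0.69. The 9 further RNA polymerase I genes differed from the 7 members here. Their median lay below both other lists in each comparison with siCtrl (-0.32, -0.40 and -0.85). The order in siHAND2 thus depended on which RNA polymerase I genes were taken. Both of these sets hold factors as well as subunits, unlike the other lists. These are descriptions with no test.

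**Figure D4:**
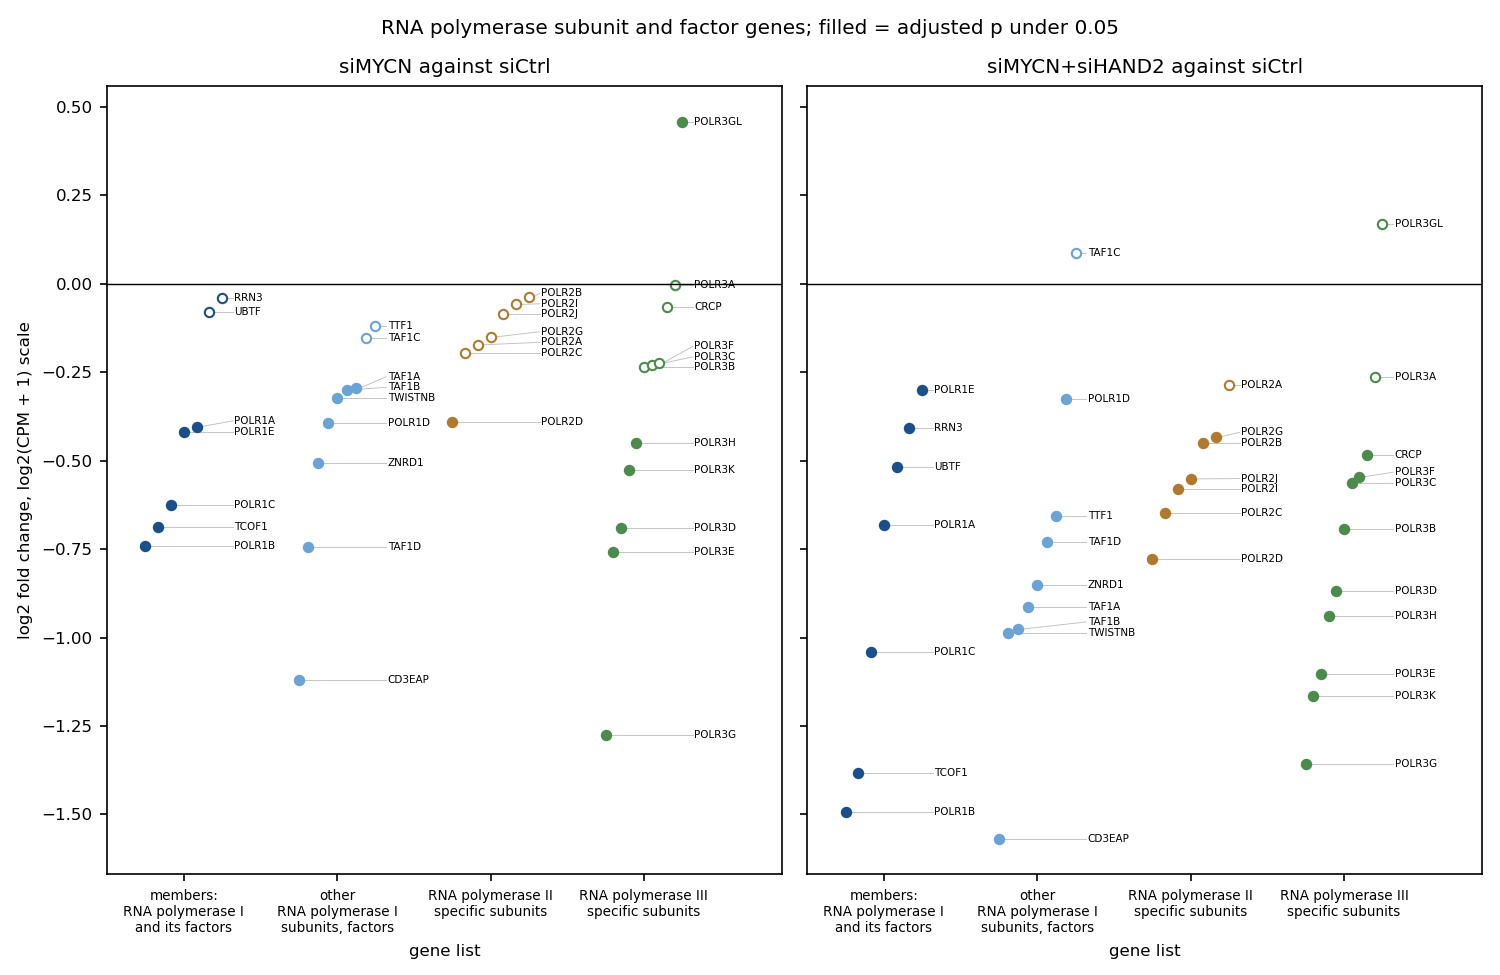
Log2 fold change against siCtrl, on the log2(CPM + 1) scale, of the RNA polymerase I members, the other RNA polymerase I genes and the subunits specific to RNA polymerases II and III, in siMYCN (left) and the double knockdown (right); each point is a gene and filled points passed the test. In siMYCN, POLR3G (-1.28) and CD3EAP (-1.12) are lowest, POLR3GL (0.46) is the gene above 0 that passed, and RRN3 and UBTF lie near 0. In the double knockdown RRN3 (-0.41) and UBTF (-0.52) lie lower and passed the test.

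Some members share their place in the genome with other listed genes, and whether the counting used strand is not given. In all, 14 members overlap a listed gene on the same strand, 15 on the other strand, and 29 overlap none. NCL, NOP56, NOP58, DKC1, WDR43 and GNL3 hold small nucleolar RNA genes within their own bounds. PPAN overlaps SNORD105, SNORD105B, P2RY11 and PPAN-P2RY11 on the same strand, and RRN3 overlaps PDXDC1 on the other strand. Reads of these overlapping genes could have been split or joined. UTP20, RRP9, NPM1, RRS1, LYAR, BRIX1, POLR1A and POLR1E overlap no listed gene.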

How the data were processed

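RNA sequencing values of 12 IMR32 samples were used as the authors deposited them, in CPM, with 27514 genes and gene positions in hg19 (GRCh37). STAR 2.5.1 and Partek are named in the submitters' processing notes, with no role stated. Which program counted the reads, whether by strand, on what annotation and with what filter is not given in the sources used here. A constant of 0.0001 CPM stood in the table in place of 0. Samples were grouped, and numbered within a group, by their titles. No replicate pair held identical values, and the per-gene chi-square between replicates was 3.35 to 37.7, so each counted as 1 sample. Depth (31.6 to 64.2 M reads) was read from the most common CPM value of each sample above that constant, taken as a single read. Only 89.05 to 90.36% of values below 20 reads came out whole (tolerance 0.05 reads), so no count test was run. A count of 3 reads equals 0.0467 to 0.0950 CPM.

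Genes averaging at least 1 CPM (12680) were tested on log2(CPM + 1), in 1 model of the 4 groups over all 12 samples (limma 3.58.1 with a mean-variance trend, R 4.3.3, 8 residual degrees of freedom). Tests were two-sided, with Benjamini-Hochberg adjustment over all genes tested. Fold changes on this scale understate those of genes with low values. The procedure was also run on simulated data that held no shift in scale between groups, and no result here rests on that run. Alternatives were rescaling by the median ratio or to the sum over the listed genes, a pseudocount of 0.1, no filter, a mean of at least 5 CPM, only the compared groups, no trend, an absolute log2 change of at least 1, the replicate number as a block, and each sample left out in turn.

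Same-numbered samples of different groups were checked for shared deviations from their group means. The correlations ran from -0.192 to 0.44 and were over 0.1 for every number in 2 of the 6 pairs of groups (siCtrl with siMYCN, siMYCN with siHAND2). The labels do not state that the replicate numbers pair samples, so the main model had no block. The replicate number was used as a block, over all groups, only as an alternative setting.

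The members, roles and lists were chosen with earlier results of these data known. Values in every sample were given for the 4 largest falls per comparison with siCtrl, the member of each role with the highest mean CPM, and the 3 largest differences between the single knockdowns. POLR1A, POLR1B, RRN3, NCL, NOP10 and BRIX1 were added after their values were seen, as were TAF1C and the member percentages given without sample values. Of other lists, the largest changes that passed are named. E-boxes were counted by exact match in RefSeq promoters.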

Additional observations from a re-analysis of the deposited data

How the results depend on the processing

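Without each sample in turn, alone or (for double knockdown samples) with rescaling, the members lower than in siCtrl numbered 46 to 50 in siMYCN, 34 to 47 in siHAND2 and 48 to 52 in the double knockdown, with 0 higher except 0 to 2 in siHAND2. Against siMYCN the double knockdown had 28 to 50 lower and 0 to 1 higher, and against siHAND2 49 to 52 lower. In siMYCN against siHAND2, 14 to 46 were lower and 0 to 1 higher, and the interaction was negative in 0 to 19 and positive in 0 to 1. With an absolute log2 change of at least 1 also required, 8 members were lower in siMYCN, 0 in siHAND2, 0 in the double knockdown against siMYCN, 14 against siHAND2 and 0 in siMYCN against siHAND2. The share of all genes at this limit was not counted. Rescaling by the median ratio gave 2 higher members in siHAND2 (POLR1E and RRN3), 32 lower and 1 higher in the double knockdown against siMYCN, and 46 lower in siMYCN against siHAND2. Rescaling to the listed sum gave 1 higher in siHAND2 and 1 higher in the double knockdown against siMYCN (POLR1E in both). A fit of only the compared groups gave 1 higher in siHAND2 (POLR1E) and 2 in siMYCN against siHAND2 (BRIX1 and NOP10). With the replicate block, 1 interaction was negative (NCL) and 29 members were lower in siMYCN against siHAND2; no other count of members moved by over 1.5 times. With the replicate block and rescaling together, 2 were higher in siHAND2, 33 lower and 1 higher in the double knockdown against siMYCN, and 46 lower in siMYCN against siHAND2.

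In the comparisons with siCtrl, signs turned for 5 members. POLR1E in the double knockdown was 0.052 after median-ratio rescaling (with or without the replicate block), 0.043 after scaling to the listed sum, and 0.029, 0.058 and 0.069 when rescaled without replicate 1, 2 or 3 of the double knockdown. RRN3 was 0.02 in siMYCN after scaling to the listed sum. RRN3 in siHAND2 was 0.15 rescaled by the median ratio, with or without the replicate block or 1 double knockdown sample, 0.12 after scaling to the listed sum, and -0.033 to 0.025 on deposited values without 1 sample, above 0 without siCtrl replicate 1 or siHAND2 replicate 3. In siHAND2, UBTF was 0.017 and NOB1 0.006 rescaled by the median ratio, alone, with the replicate block or without 1 double knockdown sample. POLR1A in siHAND2 ran from -0.072 to 0.11 without 1 sample, below 0 without siCtrl replicate 3 or siHAND2 replicate 1. Between knockdowns, median-ratio rescaling also turned the sign of POLR1A (double knockdown against siMYCN, to 0.07), NOP10 (double knockdown against siHAND2, to 0.03) and 5 members in siMYCN against siHAND2 (UBTF, EBNA1BP2, BRIX1, FTSJ3 and IMP3), none of which had passed the test. The cause was not tested. The other settings kept every count of members within 1.5 times. All members lie above the CPM of 3 reads in every sample, and precision is also limited by the 3 samples a group.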
